A study of Mus musculus with 5 samples.

Results

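The interferon-induced genes described here are 35 genes listed by symbol as known interferon targets. The rule uses no measured value, although the list was drawn up with earlier results of these arrays known. Of these, 33 had a probe set annotated with a single gene symbol, and each was read from its probe set of highest mean. They stand among 18193 genes measured in that way on the array. The other two, Isg15 and Ifi44, were not analysed here. The annotation gave the Isg15 probe set a second symbol. The measured genes were divided by their best known inducer into 24 type I interferon-induced and 9 interferon gamma-induced genes, although most respond to both to some degree.

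The study compared B220+ bone marrow cells of FVB mice at 4 weeks of age, taken without prior treatment. Of the 5 Affymetrix whole-genome mouse arrays, 3 came from mice homozygous for the kinase-dead K44A knock-in of IKKα (KA/KA) and 2 from wild-type littermates (WT). The knock-in is carried by every cell of the animal and is not restricted to the B lineage. The cells were enriched with magnetic beads, and nothing in the labels tells pooled animals from single ones, so p-values measure only the spread between these arrays, which may be partly technical. Signals are given as log2(signal + 16), a scale on which differences of dim genes are understated, and a difference of 1 is a doubling of (signal + 16). Levels are compared between arrays for the same probe set and never between genes.

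Type I interferons act through the receptor chains IFNAR1 and IFNAR2, which signal through JAK1 and TYK2 to a transcription factor complex that includes STAT2 and IRF9. That complex binds the interferon-stimulated response element (ISRE) in front of antiviral genes. Interferon gamma acts through IFNGR1 and IFNGR2 and mainly through the gamma-activated site (GAS), and it induces IRF1, guanylate-binding proteins, immunity-related GTPases and the machinery of antigen presentation. Bone marrow and lung both keep a resting level of many of these genes without infection.

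Promoter sequences show how the classes overlap in the elements they carry. RefSeq windows on GRCm38.p6, each reaching from 250 bases before to 50 bases after a start site, were found for 26 of the 35 genes. The ISRE was searched as GAAANNGAAA or, on the other strand, TTTCNNTTTC, and the GAS as TTCNNNGAA, which reads the same on both strands. An ISRE match was found for 12 of the 26 genes, 8 of 18 type I and 4 of 8 interferon gamma-induced, against 3.99% of all 27025 genes with a window. A GAS match was found for 8 of the 26 genes, 5 of 18 and 3 of 8 by class, against 9.55% of all genes. A match describes letters only.

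The stretches below lie directly before the start site and are shown for genes that lead the results, with the matches in capitals. Ifit1 and Gbp2 differed between the kinds of array, Rsad2 showed the widest genotype difference in the marrow-like pair, Igtp and Irgm1 hardly varied, and Irf1 and Psmb8 carry a GAS match. Capitals mark ISRE matches in the first 5, of which the Irgm1 pair overlaps, and GAS matches in the next 2. Igtp also holds a GAS match, left in lower case, whose first base is at position -45 from the start site.
Ifit1 (chr19:34640759-34640888, + strand): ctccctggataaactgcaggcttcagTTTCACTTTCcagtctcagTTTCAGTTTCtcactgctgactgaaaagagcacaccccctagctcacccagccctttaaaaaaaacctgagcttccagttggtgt
Gbp2 (chr3:142620573-142620662, + strand): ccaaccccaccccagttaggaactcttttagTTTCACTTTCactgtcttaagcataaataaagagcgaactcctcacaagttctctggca
Rsad2 (chr12:26456453-26456592, - strand): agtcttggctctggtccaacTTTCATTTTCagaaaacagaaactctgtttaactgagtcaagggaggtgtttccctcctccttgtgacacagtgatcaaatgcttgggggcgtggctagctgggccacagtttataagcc
Igtp (chr11:58199476-58199555, + strand): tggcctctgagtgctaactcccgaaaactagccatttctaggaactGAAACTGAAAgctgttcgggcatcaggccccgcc
Irgm1 (chr11:48871421-48871500, - strand): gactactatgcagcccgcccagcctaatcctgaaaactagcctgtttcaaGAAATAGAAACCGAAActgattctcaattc
Irf1 (chr11:53769894-53770013, + strand): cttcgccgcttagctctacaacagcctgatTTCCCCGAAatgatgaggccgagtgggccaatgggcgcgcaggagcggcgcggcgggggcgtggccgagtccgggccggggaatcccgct
Psmb8 (chr17:34198075-34198194, + strand): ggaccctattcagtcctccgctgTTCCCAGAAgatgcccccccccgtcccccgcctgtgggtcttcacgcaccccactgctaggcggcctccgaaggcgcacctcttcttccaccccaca
The next stretch is the whole interval between Psmb9 and Tap1, which are transcribed away from each other and so share it. It measures 225 bases, is written on the + strand and holds neither match.
Psmb9 and Tap1 (chr17:34187331-34187555, + strand): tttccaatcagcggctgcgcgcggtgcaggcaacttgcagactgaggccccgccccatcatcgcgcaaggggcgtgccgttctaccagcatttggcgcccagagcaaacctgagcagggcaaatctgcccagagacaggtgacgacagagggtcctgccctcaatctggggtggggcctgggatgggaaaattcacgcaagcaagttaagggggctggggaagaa

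The arrays were of 2 kinds, and the kind cut across the genotype labels. In KA/KA 1 and WT 1, called the marrow-like pair, all 11 measured B-lineage markers were higher than in KA/KA 2, KA/KA 3 and WT 2, called the lung-like arrays. In the lung-like arrays 5 or 6 of those 11 markers lay below the level used as the filter on dim genes (7.04). Among them the recombinase gene Rag1 read 4.09, 4.09 and 4.10. Others stayed above that level on each lung-like array, such as Blnk (11.58, 10.40 and 8.95), Cd22 (10.84, 10.95 and 9.61) and Cd79b (9.44, 11.10 and 9.39). By the marker list as a whole, the labelled cell type was not borne out there. Of 10 tested lung epithelial markers, all 10 were higher on the lung-like arrays (limma, adjusted p under 0.05). The summed signal of the 11 measured ones was 134559 to 206408 against 1043 and 1276. In KA/KA 1 and WT 1, 9 and 10 of these 11 lay below the filter level. Most thus entered the test because their lung-like levels raised the mean over all arrays, which favours that direction. Nkx2-1 stayed below the level on every array and was not tested. The kinds were set from bacterial control probes added to the RNA and are not groups of the study. Each array had a trimmed mean signal of 500 and a median signal of 95.7 to 128, and the number of arrays limits the precision.

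**Figure D1:**
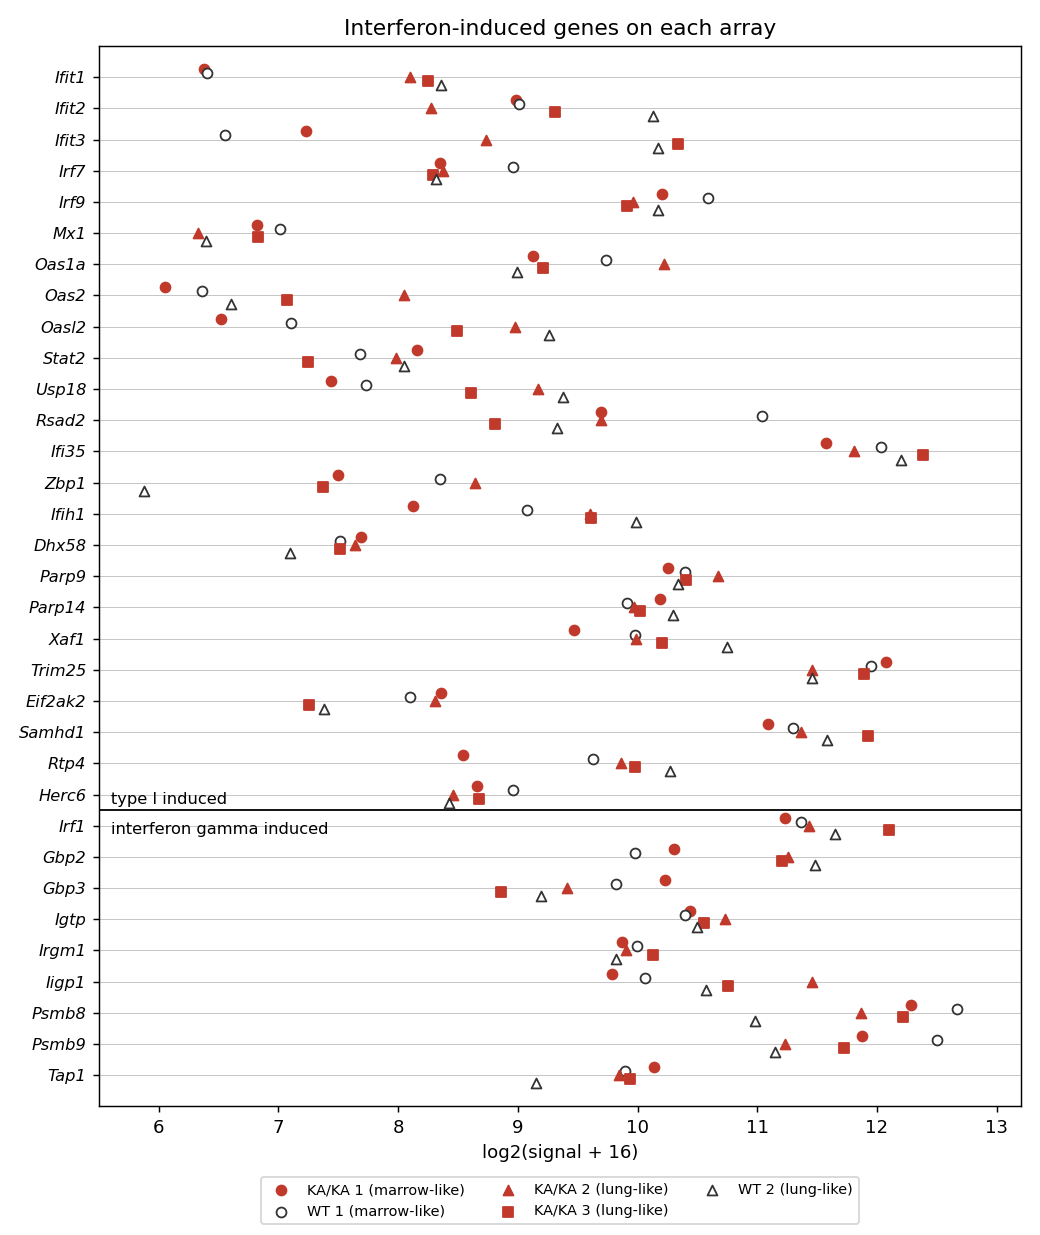
Level of each of the 33 measured genes on each array, as log2(signal + 16), with symbols offset vertically for legibility. Filled symbols are KA/KA and open symbols WT, and circles are the marrow-like pair. Ifit1, Ifit3, Oasl2 and Usp18 lie apart between the circles and the other symbols, while Igtp and Irgm1 lie close together on every array.

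The members differed between the 2 kinds of array in one direction where they passed the test. Of 31 tested members, 7 were higher on the lung-like arrays and 0 lower (limma with genotype in the model, Benjamini-Hochberg adjusted p under 0.05). Over all 11392 tested genes, 21.5% were higher and 14.2% lower, so the share of members called higher, 22.6%, was near the background. Of the 7, 6 were type I genes (Ifit1, Ifit3, Oasl2, Usp18, Ifih1 and Rtp4) and 1 was interferon gamma-induced (Gbp2). At an unadjusted p under 0.05, 9 members were higher and 1 lower (Gbp3), against 26.7% and 20.1% of all tested genes. Whether cell types or tissue made these differences cannot be told apart from other differences between the kinds of array. In such bulk samples fewer cells of a type and less RNA per cell cannot be told apart either.

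Ifit3, a partner of IFIT1 in binding viral RNA, read 7.23 and 6.55 in KA/KA 1 and WT 1 and 8.73, 10.33 and 10.17 in KA/KA 2, KA/KA 3 and WT 2. The groups did not overlap, and the fitted difference was the widest of all tested members (2.87 ± 0.58, lung-like minus marrow-like, ± SE, n = 3 and 2 arrays, limma adjusted p = 0.013). Oasl2, an antiviral protein related to the oligoadenylate synthetases, read 6.52 and 7.11 against 8.97, 8.49 and 9.26. All 3 lung-like arrays again lay above the pair (2.18 ± 0.33, limma adjusted p = 0.0048). Ifit1, which binds viral RNA that lacks host cap methylation and carries the 2 ISRE matches printed above, read 6.38 and 6.40 against 8.10, 8.25 and 8.36. It differed by 1.86 ± 0.33 (limma adjusted p = 0.0087), and the gap between the kinds exceeded the range inside either. Usp18, the protease that removes ISG15 and damps the type I receptor, read 7.44 and 7.73 against 9.17, 8.61 and 9.38 (1.54 ± 0.32, limma adjusted p = 0.015). In the marrow-like pair the means of Ifit1 (6.39), Oasl2 (6.82) and Ifit3 (6.89) lay below the filter level of 7.04. These genes entered the test because their lung-like levels raised the mean over all arrays. The sizes of their differences depend on the constant added to the signal. With 64 as the constant, the differences were 1.42 for Ifit1, 1.79 for Oasl2 and 2.47 for Ifit3, and each still passed.

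Ifih1, which encodes the double-stranded RNA sensor MDA5, read 8.12 and 9.08 in the pair and 9.60, 9.61 and 9.99 on the lung-like arrays (1.23 ± 0.28, limma adjusted p = 0.018). Rtp4, an interferon-induced transmembrane protein gene, read 8.54 and 9.63 against 9.86, 9.98 and 10.27 (1.07 ± 0.28, limma adjusted p = 0.032). For both genes WT 1 lay nearer to the lung-like arrays than KA/KA 1 did. Gbp2, a guanylate-binding protein of the response to intracellular microbes, read 10.31 and 9.98 against 11.25, 11.20 and 11.48 (1.17 ± 0.25, limma adjusted p = 0.016). With KA/KA 1, WT 1 or WT 2 left out, 0 members passed. Without KA/KA 3, 5 did, and without KA/KA 2 there were 9, of which 7 were higher. Centring each array on its median moved the median difference of all tested genes from 0.04 to -0.31. Then 41.0% of all called genes were higher in place of 60.2%, and 6 members passed as higher and 3 as lower (Gbp3, Psmb9 and Tap1), with Rtp4 no longer called.

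**Figure D2:**
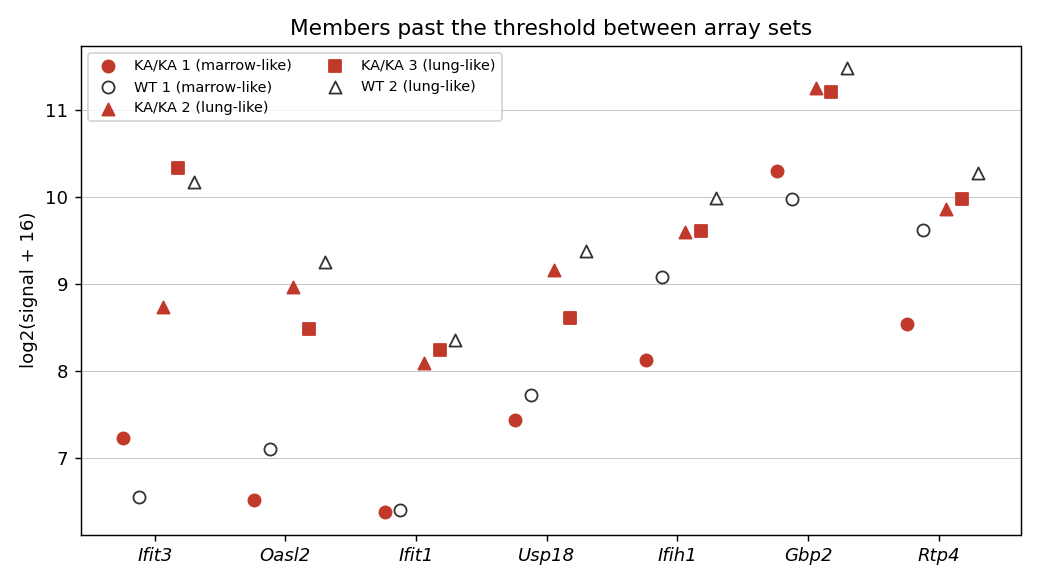
Levels of the 7 members past the threshold between the kinds of array, as log2(signal + 16), for each array. The triangles and squares (lung-like arrays) lie above the circles (marrow-like pair) for every gene, from a fitted difference of 2.87 for Ifit3 to 1.07 for Rtp4.

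In the marrow-like pair most type I genes were lower in KA/KA 1 than in WT 1. Of 24 type I genes, 18 were lower and 6 higher, with a median difference of -0.30. The 9 interferon gamma-induced genes were closer to balance, 5 lower and 4 higher, with a median of -0.12. Over all 18193 genes 45.7% were lower and 54.3% higher, and the median was 0.05. A difference of at least 1 log2 unit was found for 2 of the 33 members, both type I and both lower, where 3.65% of all genes were as much lower (1.58% of the brighter genes that entered the tests). None was as much higher, against 5.03% of all genes (2.83% of those brighter genes). The pair has 1 array of each genotype, so these differences have no replicate check and no test.

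Rsad2, which encodes viperin, an enzyme that makes a chain-terminating nucleotide against viral replication, read 9.70 in KA/KA 1 and 11.04 in WT 1, a difference of -1.35. Its other probe sets gave -0.90 and -1.27 in the same pair. On the lung-like arrays Rsad2 read 9.70 and 8.81 in KA/KA 2 and KA/KA 3 and 9.33 in WT 2, on either side of WT. The Rsad2 promoter stretch printed above holds 1 ISRE match. Rtp4 differed by -1.09 and Ifih1 by -0.95, from the levels given above. Zbp1, a sensor of Z-form nucleic acid that can trigger necroptosis, read 7.50 against 8.35 (-0.85), although its second, dimmer probe set gave 0.15. These 4 genes were the type I members furthest apart in the pair, and WT 1 was the higher array for each by the probe set of highest mean.

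Of the 4 transcription factors of the set, 3 were lower in KA/KA 1. Irf7, which amplifies interferon production, read 8.35 against 8.96 (-0.61). Irf9, the DNA-binding part of the type I complex, read 10.20 against 10.59 (-0.39). Irf1, the early factor of the interferon gamma response, read 11.23 against 11.37 (-0.14). Stat2 ran the other way, at 8.16 against 7.69 (0.47), although its second probe set gave -0.14. Ifit3 was the type I gene furthest in that direction (0.67).

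Among the interferon gamma-induced genes, Psmb9, an inducible subunit of the immunoproteasome, was the only member at least 0.5 log2 units apart in the pair, at 11.88 against 12.51 (-0.63). Psmb8, the other inducible subunit of the set, read 12.29 against 12.67 (-0.38), although its second probe set gave 0.10. Tap1, the peptide transporter that feeds MHC class I and shares its upstream interval with Psmb9, stood at 10.13 against 9.90 (0.24), the opposite sign. The GTPases of the set, Gbp2, Gbp3, Igtp, Irgm1 and Iigp1, lay between -0.28 and 0.41. Markers of other cells also differed in the pair. Of 8 plasmacytoid dendritic cell markers, 5 were lower in KA/KA 1, with a summed signal of 28288 against 35853, and the defining marker Siglech read 10.30 against 11.12. The others, Tcf4, Pacsin1 and Irf8, were higher, by 0.46, 0.42 and 0.09. Ly6d, at 13.26 against 13.94, weighed most in these sums, and Bst2, another of the lower markers, is itself an interferon target. Of 9 neutrophil markers 9 were lower (129818 against 196709), and of 6 NK cell markers 5 (2776 against 3154). Of 6 T cell markers 4 were lower and 2 higher (1641 against 3469), with Cd3d at 9.56 against 11.29. Of 12 monocyte and macrophage markers 11 were higher (54369 against 43646), and of 10 endothelial markers 9 (4406 against 2935). No marker was at 0, and the part of these cells in the interferon genes was not tested.

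**Figure D3:**
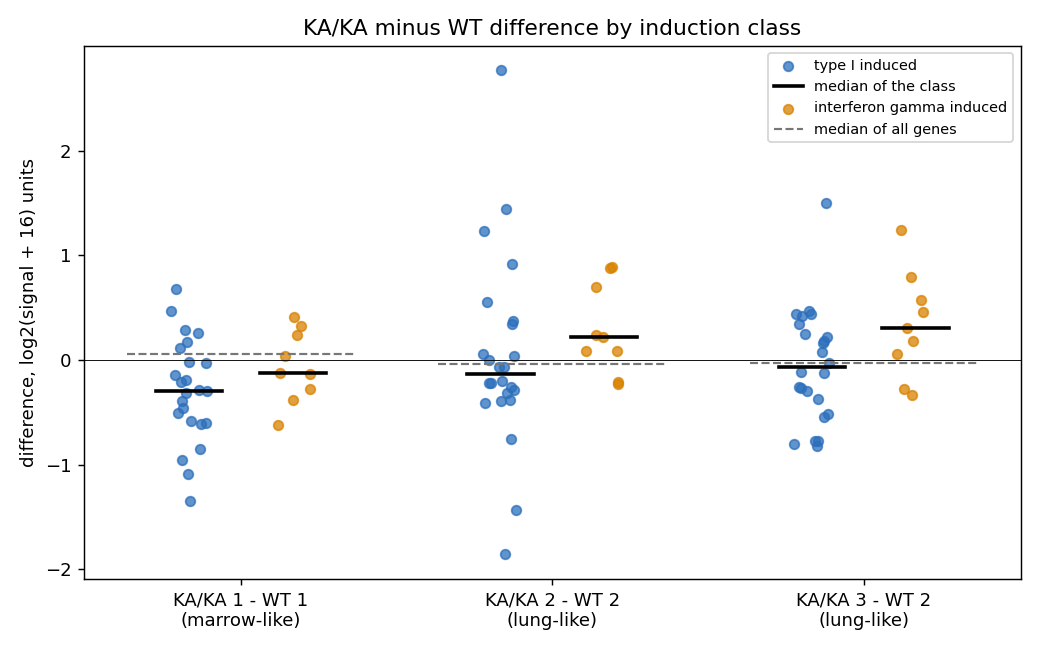
KA/KA minus WT differences of the 24 type I and 9 interferon gamma-induced genes, in log2(signal + 16) units, for the 3 array comparisons. Black bars are class medians (-0.30 and -0.12, -0.13 and 0.21, -0.07 and 0.31 from left to right) and dashed lines the medians of all 18193 genes. The second and the last comparison share the array WT 2.

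On the lung-like arrays a larger share of the interferon gamma-induced than of the type I genes lay above WT. Their median difference was 0.21 for KA/KA 2 minus WT 2 and 0.31 for KA/KA 3 minus WT 2, with 7 of 9 higher in each. The type I medians were -0.13 and -0.07, with 10 and 11 of 24 higher. Both comparisons use the same WT array, so they are not independent, and the medians of all genes were -0.04 and -0.03. Both KA/KA arrays lay above WT 2 for 6 of 9 interferon gamma-induced and 7 of 24 type I genes, against 31.8% of all genes. Both lay below it for 1 and 10 genes respectively, against 37% of all genes. These counts have no test of their own.

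The 3 antigen-processing genes of the set were all above WT 2 on both KA/KA arrays. Psmb8 read 11.87 and 12.22 in KA/KA 2 and KA/KA 3 and 10.98 in WT 2, differences of 0.89 and 1.24. A second, dimmer Psmb8 probe set gave 1.25 and 1.57, but it read 5.85 on WT 2, below the filter level. Tap1 read 9.84 and 9.94 against 9.15 (0.69 and 0.79), and Psmb9 11.23 and 11.72 against 11.15 (0.09 and 0.57). WT 2 was the lowest of all 5 arrays for each of the 3 genes. The GTPase Iigp1, which attacks the vacuoles of intracellular parasites, read 11.46 and 10.75 against 10.58 (0.88 and 0.18), so KA/KA 3 stayed near WT 2. In the pair Iigp1 read 9.78 in KA/KA 1 and 10.06 in WT 1. Irf1 read 11.44 and 12.10 against 11.65, on either side of it.

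Zbp1 was the only member with both KA/KA arrays at least 1 log2 unit from WT 2, where 3.51% of all genes were as much higher (3.83% of tested genes). It read 8.64 and 7.37 against 5.88 (2.77 and 1.50). The WT 2 value is below the level used as the filter on dim genes, so this difference depends on the constant added, and the mean of 2.13 became 1.54 with 64 in place of 16. A second, dimmer Zbp1 probe set gave 0.65 and 0.01. No member was at least 1 log2 unit lower on both arrays, against 2.73% of all genes (1.76% of tested genes).

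Other antiviral genes were uneven between the KA/KA lung-like arrays. Ifit2, which limits translation of viral messages, read 8.28 and 9.31 against 10.13 in WT 2 (-1.86 and -0.82). Oas1a, an oligoadenylate synthetase that activates RNase L, read 10.22 and 9.21 against 8.99 (1.23 and 0.22), and the related Oas2 read 8.05 and 7.07 against 6.60 (1.44 and 0.47). Ifit3 differed by -1.44 in KA/KA 2 and by 0.16 in KA/KA 3. For these 4 genes KA/KA 2 and KA/KA 3 lay further from each other than KA/KA 3 lay from WT 2. In the pair, Ifit2 read 8.98 in KA/KA 1 and 9.01 in WT 1, Oas1a 9.12 and 9.73, and Oas2 6.05 and 6.36. The transcription factors Irf7 (8.37 and 8.29 against 8.32) and Irf9 (9.97 and 9.91 against 10.17) lay within 0.26 of WT 2. Stat2 read 7.98 and 7.25 against 8.05.

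The same KA/KA arrays carried more signal of several immune cells. Of 12 monocyte and macrophage markers 12 were above WT 2 on both, with a summed signal of 83352 and 46123 against 17759. Of 6 T cell markers 6 were above it on both (3646 and 9099 against 1609). Of 9 neutrophil markers 6 and 8 were above it (58532 and 89734 against 7706). Most of these sums came from S100a8, S100a9 and Lcn2, while Ltf was below WT 2 on both KA/KA arrays (-0.55 and -1.53). Over all genes, 31.8% lay above WT 2 on both KA/KA arrays and 37% below it. Endothelial markers ran the other way, with 10 and 8 of 10 below WT 2 (17653 and 45442 against 54622). The plasmacytoid dendritic cell sum was 8801 and 8017 against 9163, with Siglech below the filter level on all 3 arrays, and that of NK cells 1309 and 1691 against 1790. No marker was at 0, and how far these cells account for the interferon genes was not tested.

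**Figure D4:**
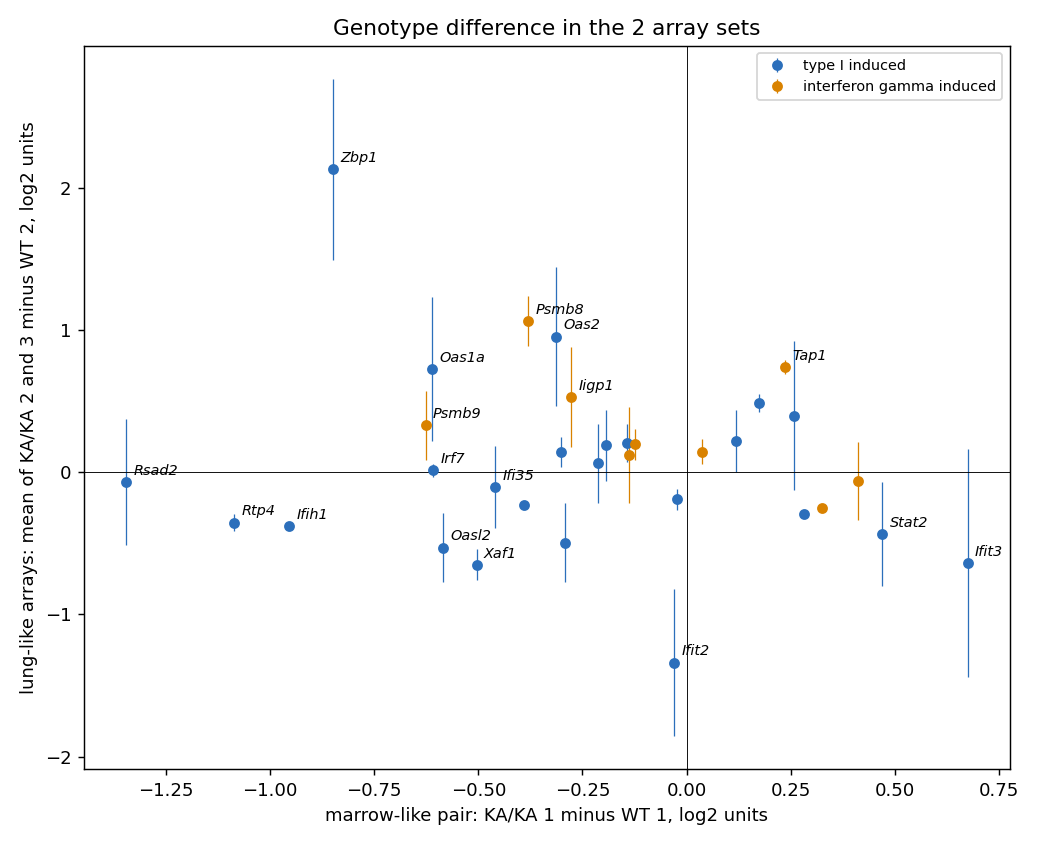
KA/KA minus WT difference of each measured gene in the marrow-like pair (horizontal) and, as the mean of both KA/KA arrays, on the lung-like arrays (vertical), in log2(signal + 16) units. Vertical lines join the values of KA/KA 2 and KA/KA 3. Zbp1 lies at -0.85 and 2.13, Psmb8 at -0.38 and 1.06, and Rtp4, Ifih1, Oasl2 and Xaf1 below 0 on both axes.

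Across both kinds of array, 8 members were lower in every KA/KA array than in the WT array of its kind, counting any size. All 8 were type I genes (Ifit1, Ifit2, Irf9, Oasl2, Usp18, Ifih1, Xaf1 and Rtp4). Genes lower in this way made up 15.1% of all genes and 24.2% of the members. In the pair, though, Ifit1 and Ifit2 differed by only -0.02 and -0.03. The 4 members higher throughout, again by any size, were Dhx58 and Trim25 of the type I class and Igtp and Tap1 of the interferon gamma class, 12.1% against 15.2% of all genes. For KA/KA 2 minus WT 2, Trim25 differed by only 0.003, and its other probe sets gave -0.13 and 0.23. For KA/KA 3 minus WT 2 those probe sets gave 0.41 and -0.79. With the kind of array as a block, limma called 0 of 31 tested members in either direction, and 0% of the 11392 genes. Every member had an adjusted p of 0.999 in that fit. Only Xaf1, a pro-apoptotic gene named here after its values were seen, had an unadjusted p under 0.05 (limma, 0.049). It read 9.47 against 9.98 in the pair and 9.99 and 10.20 against 10.75 on the lung-like arrays, lower in 3 of 3 KA/KA arrays (-0.59 ± 0.24, limma adjusted p = 0.999). The lung-like differences share the array WT 2. A second Xaf1 probe set, with a mean below the filter level, gave -0.45 in the pair and -0.02 and -0.01 on the lung-like arrays. At that unadjusted level 1.79% of all genes were higher and 0.939% lower.

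Rtp4 (-0.67 ± 0.28) and Ifih1 (-0.63 ± 0.28) were next among the lower members by unadjusted p, while Ifit2 had a larger difference with a larger error (-0.78 ± 0.46), and Tap1 (0.53 ± 0.26) was the furthest above its error among the higher ones. For the transcription factors the same fit gave 0.01 ± 0.30 for Irf1, -0.25 ± 0.31 for Irf7, -0.30 ± 0.23 for Irf9 and -0.05 ± 0.41 for Stat2. The two-sided limma adjusted p was 0.999 for each of these, so none passed the test.

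The difference between the kinds of array in the genotype effect was tested as an interaction. It called 0 of 31 tested members and 0 of 11392 genes (limma, smallest adjusted p 0.754), with 3.59% of genes at an unadjusted p under 0.05 upward and 2.19% downward. Psmb8 was the 1 member at that unadjusted level, with a genotype effect 1.44 ± 0.46 larger on the lung-like arrays (limma adjusted p = 0.754). Zbp1 had the largest interaction of the members (2.98 ± 1.08, limma adjusted p = 0.754). Opposite signs in the 2 kinds of array were therefore not shown to differ beyond the spread between arrays.

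The rest of the pathway was measured from lists of ligands, receptors, signalling proteins and other targets. All 6 measured interferon genes, Ifng and Ifnb1 among them, had a mean level below the filter on dim genes and were not tested. Single readings reached above it for Ifna2 on WT 2 (7.97) and Ifnz on KA/KA 2 (7.06). Ifng read 5.82 and 5.89 in KA/KA 1 and WT 1 and 5.86, 5.63 and 4.37 in KA/KA 2, KA/KA 3 and WT 2. Of 6 receptor genes 0 passed the genotype test. Ifnar1 differed by 0.37 ± 0.24, Ifnar2 by 0.09 ± 0.24, Ifngr1 by -0.27 ± 0.24 and Ifngr2 by 0.49 ± 0.29. The interferon lambda receptor chain Ifnlr1 stood at -0.04 ± 0.33 and the shared chain Il10rb at 0.24 ± 0.31. Ifnar2 alone of the 6 was higher on the lung-like arrays (0.82 ± 0.24, limma adjusted p = 0.042), against 21.5% of all tested genes. The kinase Jak2 was the nearest to the genotype threshold of the 3 measured kinases (0.36 ± 0.27), and 0 of the 3 passed.

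Some other genes of the pathway also differed between the kinds of array. Over all 11392 tested genes, 14.2% were lower and 21.5% higher on the lung-like arrays (limma adjusted p under 0.05). Of 5 other IRF genes 3 were lower there, the lymphoid factor Irf4 by 3.31 ± 0.27, Irf5 by 1.76 ± 0.29 and Irf8 by 2.28 ± 0.25. By genotype Irf4 had the smallest p of the 5 (0.82 ± 0.27) and did not pass. Of 10 tested genes of sensing upstream of interferon, Tlr3, the endosomal receptor of double-stranded RNA, was higher on the lung-like arrays (3.00 ± 0.35, limma adjusted p = 0.0022) and Tlr7, its counterpart for single-stranded RNA, lower (-1.65 ± 0.49, limma adjusted p = 0.044). Tlr3 read 6.46 and 6.14 in KA/KA 1 and WT 1, below the filter level. It entered the test through its lung-like levels, and the size of its difference depends on the constant added. The kinase gene Ikbke had the smallest genotype p of that list (1.37 ± 0.60) without passing. Of 4 tested inhibitors, the receptor brake Socs3 was higher on the lung-like arrays (1.64 ± 0.36, limma adjusted p = 0.017) and the phosphatase gene Ptpn6 lower (-2.07 ± 0.35, limma adjusted p = 0.0071). By genotype Socs3 had the smallest genotype p (1.86 ± 0.36, limma adjusted p = 0.999).

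Among 28 tested interferon targets outside the set, 7 were higher and 7 lower on the lung-like arrays (limma adjusted p under 0.05). Over all 11392 tested genes, 21.5% were higher and 14.2% lower. The higher ones were the membrane proteins Ifitm1, Ifitm2 and Ifitm3, which block virus entry, with Irgm2, Gbp6, Tor3a and Isg20. The lower ones were Bst2, Tap2, Trim30a, Sp100, Pml, Ciita and Cxcl9. Ifitm3 differed by 1.98 ± 0.31 and Bst2, the tethering protein also abundant on plasmacytoid dendritic cells, by -5.11 ± 0.54. Bst2 read 6.71, 5.02 and 6.54 on KA/KA 2, KA/KA 3 and WT 2, all below the filter level. It entered the test through its levels in KA/KA 1 and WT 1 (10.90 and 11.76), and the size of its difference depends on the constant added. By genotype 0 of the 28 passed, and Ciita had the smallest p (0.73 ± 0.29).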

How the data were processed

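Total RNA of B220+ bone marrow cells was hybridised to 5 Affymetrix arrays (3 KA/KA, 2 WT). The authors deposited 1 table of linear signal intensities for 45101 probe sets. The submitters' processing notes name MAS5. After trimming 2% of probe sets from either end, the mean was 500 on all arrays. The series text names a log2 transformation, but the deposited intensity values are linear, so log2(signal + 16) was computed.

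Probe sets were named from the platform annotation: 34945 had 1 symbol, 932 several and 9160 none, and 64 controls were left out. Members were described from the probe set of highest mean. Tests used the 11392 genes at or above the median of mean log2 signal (7.04), which 31 members passed and Mx1 and Oas2 did not. limma 3.58.1 in R 4.3.3 (lmFit, eBayes with trend, two-sided, Benjamini-Hochberg over all tested genes) fitted genotype with the array kind as a block. The kind came from 24 bacterial poly-A probe sets, split where their median crosses 10 on the log2 scale. An interaction fit tested whether genotype differences varied by kind. The block fit has 2 residual degrees of freedom. Values with full arrays were given for the transcription factors, for up to 4 members per class with the largest differences of at least 0.5 in each kind of array, for the 3 widest between kinds and for members past a threshold. The members, lists, array kinds and block were chosen with earlier results of these data known. The alternatives are given in the closing section.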

Additional observations from a re-analysis of the deposited data

How the results depend on the processing

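The number of arrays limits every comparison, and leaving 1 out leaves a single residual degree of freedom. The genotype test with the array kind as a block called 0 genes, and between 0 and 5 with 1 array left out; no member passed under any of these settings or the other alternatives. With the replicate block, the number in the labels in place of the array kind, 1 gene passed and no member. Same-numbered arrays deviated together (r = 0.88 for number 1 and 0.65 for number 2), but so did KA/KA 3 and WT 2, which carry different numbers and are both lung-like (r = 0.79). Number 1 is also the marrow-like pair and only 2 pairs exist, so the pairing was not taken as part of the design. For lung-like against marrow-like arrays 4064 genes passed, and 2290 with the upper-quarter filter, which tests 7052 genes and 21 members, of which 3 members passed in place of 7. Leaving out 1 array gave 1442 to 4336 genes and 0 to 9 members. Zbp1 moved between -0.85 and 2.13 for genotype and between -2.47 and 0.51 for the array kind when 1 array was left out, and Psmb8 between -0.38 and 1.06 for genotype. The genotype values without WT 2 come from the marrow-like pair alone. Class medians of the array comparisons kept their sign under the 8 alternatives of scaling, constant, filter and probe set, from -0.42 to -0.21 for type I and from -0.14 to -0.04 for interferon gamma genes in the pair. Genes under the filter drop out of most of these alternatives, so the type I medians rest on 12 to 24 genes and the interferon gamma medians on 6 to 9, and the ranges mix that with the named choice. On the lung-like arrays the ranges were -0.27 to -0.03 and -0.26 to -0.07 for type I and 0.16 to 0.29 and 0.19 to 0.37 for interferon gamma genes. With the mean of a gene's probe sets, Trim25 and Psmb8 passed as lower on the lung-like arrays beside 7 higher members. Without shared probe sets 23 members were tested and 5 passed between the kinds of array: Oasl2 had no other probe set to test and Gbp2 no longer passed (0.74 in place of 1.17). The interaction called 0 genes wherever it could be fitted; it could not be fitted with 1 array left out.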

Other observations

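Several members were measured by more than 1 probe set, which allows a check inside each array. Of 16 such members, 10 had several probe sets at or above the level used as the filter. Among these 10, the probe sets of 4 pointed in different directions in the marrow-like pair (Parp14, Psmb8, Samhd1 and Stat2) and those of 4 on the lung-like arrays (Herc6, Parp14, Samhd1 and Trim25). Rsad2, with 3 probe sets, was lower in KA/KA 1 than in WT 1 on each of them (-0.90, -1.27 and -1.35). Iigp1, with 2, was above WT 2 on both KA/KA arrays by each (0.86 and 0.08, 0.88 and 0.18). Samhd1, which limits the nucleotide supply of viruses and has 5 probe sets, gave -0.39 to 0.75 in the marrow-like pair, so its direction there depends on the probe set.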
